A study of Mus musculus with 6 samples.

Results

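The 31 genes described here are p53 target genes and members of the DNA damage response, found in the deposited count table by their gene symbols. All 31 had exactly 1 row among 55416 gene rows. The tissue was mouse hippocampus. Mice in the EU group had received 5-ethynyluridine, a uridine analogue that cells build into new RNA and that carries an alkyne for click chemistry, as a subcutaneous dose of 50 mg/kg, given daily on postnatal days 3 to 5. Mice in the PBS group had received an equal volume of phosphate-buffered saline on the same days. The hippocampi of both groups were collected on postnatal day 36. Their RNA was clicked to biotin and pulled down on streptavidin in the same way, with or without EU in the animal. The EU libraries (n = 3) therefore hold pulled-down RNA from labelled animals, and the PBS libraries (n = 3) hold RNA bound without the label. The labels used here give no strain, sex or litter, and do not say whether a library is 1 animal or a pool.

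The transcription factor p53 is held low in unstressed cells by the ubiquitin ligase Mdm2, which is itself a p53 target. After DNA damage the kinases Atm and Atr, acting in part through Chek2 and Chek1, stabilise p53. It then binds DNA at pairs of a short half-site and raises genes that stop the cell cycle, start apoptosis, repair DNA or adjust metabolism. In the brain, p53-dependent death is best known from immature and dividing neural cells exposed to radiation or toxic agents. Several of the targets keep a basal level without damage, and some, Gadd45a among them, also answer to other kinds of stress.

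The half-site is the DNA feature that ties p53 to its target genes, so the matches near the start sites of the 31 genes are shown. RefSeq promoter windows of GRCm38.p6, running from 250 bases before to 50 bases after a start site, were held for 23 of the 31 genes in 30 windows. The p53 half-site consensus, which reads the same on both strands, was found in 11 of the 30 windows (36.7%) and in 8.36% of all 32851 windows. The 11 windows belonged to 10 of the 23 genes, against 9.55% of all 27025 genes with windows. A GC box (GGGCGG on either strand) was in 73.3% of the 30 windows and 35.7% of all windows. The windows of these genes thus differ from all windows in more than the half-site. Each match is given 5′ to 3′ on the strand of its gene, with 10 flanking bases on each side and the half-site in capitals. The position is that of its first base relative to the start site.
Aen, chromosome 7, position -121: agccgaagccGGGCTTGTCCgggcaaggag
Bax, chromosome 7, position -201: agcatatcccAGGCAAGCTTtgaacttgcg
Ccng1, chromosome 11, position -185: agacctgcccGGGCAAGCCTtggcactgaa
Cdkn1a, chromosome 17, position -73: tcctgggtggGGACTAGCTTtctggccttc
Cdkn1a, chromosome 17, position -51: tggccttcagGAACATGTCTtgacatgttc
Ei24, chromosome 9, position -10: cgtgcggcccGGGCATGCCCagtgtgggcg
Gadd45a, chromosome 6, position -40: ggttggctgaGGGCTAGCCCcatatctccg
Mdm2, chromosome 10, position -186: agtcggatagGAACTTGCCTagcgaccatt
Polk, chromosome 13, position -231: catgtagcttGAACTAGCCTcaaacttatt
Sesn1, chromosome 10, position -173: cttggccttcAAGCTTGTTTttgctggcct
Trp53, chromosome 11, position -75: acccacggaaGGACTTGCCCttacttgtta
The second Aen window holds the same site, at position 11 of its own start.

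Only 1 of the 30 windows held 2 half-sites within 13 bases of each other, against 0.0731% of all windows. It belongs to the more upstream of 2 annotated starts of Cdkn1a, 2790 bases before the other, and spans chr17:29090729-29091028 on the plus strand of GRCm38.p6. The 2 half-sites that match in full, in capitals, are 12 bases apart. The 10 bases directly after the second miss the consensus only at their first base, so they were not counted and are not in capitals.
Cdkn1a, upstream start: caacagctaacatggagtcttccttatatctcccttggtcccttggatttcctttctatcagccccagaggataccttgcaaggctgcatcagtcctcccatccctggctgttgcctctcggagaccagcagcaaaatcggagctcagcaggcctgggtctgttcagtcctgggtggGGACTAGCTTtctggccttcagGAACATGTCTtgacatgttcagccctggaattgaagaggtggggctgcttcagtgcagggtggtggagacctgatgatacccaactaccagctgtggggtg
A match is a string of letters and not a measured binding site. Where the windows hold no match, as for Bbc3 or Sesn2, this says only that the letters are not within them.

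Library totals lay between 39886723 and 51279929 counts in EU and between 43838026 and 58301239 in PBS. PBS replicate 2 stood apart from the rest, with 19243 genes detected against 23816 to 26372 in the other 5 libraries and the lowest mean correlation with them (mean Pearson r of log2 levels of 0.976, against 0.987 to 0.990). The Xist RNA of the inactive X chromosome had 39 counts in EU replicate 1, 4 in PBS replicate 1, and 6545 to 8460 in the others, so 1 library of each group lacked it. Levels are CPM, the usual count per library size, scaled by TMM factors, which set the libraries to a common overall level. The ERCC spike-in rows were at 0, so an EU pulldown that yielded more of every RNA alike would not show. Genes were tested on the counts with edgeR's quasi-likelihood test, 2-sided, with Benjamini-Hochberg adjustment over 18511 genes and a threshold of 0.05. In bulk tissue, fewer cells that express a gene and less of its RNA per cell cannot be told apart. All 6 libraries are pulldowns, with none of RNA before the pulldown. A difference in capture and a difference in the level in the tissue therefore cannot be told apart either.

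Markers of the hippocampus were present in every library. The 5 dentate granule cell markers summed to between 423 and 449 CPM in EU and between 469 and 570 in PBS, and the 5 pyramidal cell markers to between 796 and 944 in EU and between 997 and 1032 in PBS. All 5 dentate granule markers had lower values in EU. Of the 5 pyramidal markers 4 were lower and 1 was higher, with a log2 fold of 0.51. The 8 neocortex markers summed to between 372 and 489 CPM in EU and between 238 and 328 in PBS, and all 8 had higher values in EU. No marker of these 3 lists passed the test. These sums moved with the group without overlap. The lists were chosen with earlier results of these data known, so their directions are a description and not support for a difference. The part of the markers' cell types in the values given here was not tested.

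No p53 target or damage response gene passed the test for a difference between the EU and PBS pulldowns. All 31 passed the filter on low counts and were tested, and 0 passed the threshold, with edgeR adjusted p from 0.68 to 0.995. Of all 18511 genes, 0 (0%) passed, and 1459 (7.88%) had an unadjusted p under 0.05, a level reached by 0 of the 31. Limma voom, which called 0.0648% of all genes, and edgeR without the filter, which called 0.797% of 31108 genes, also called 0 of the 31. DESeq2 gave an adjusted p to 8462 genes, of which it called 3.47%, and to 14 of the 31, of which it called 0. The other 17, Cdkn1a, Gadd45a, Bax and Chek2 among them, had no adjusted p in DESeq2, and 0 of these had an unadjusted p under 0.05 there. Values were higher in EU for 19 of the 31 genes (61.3%), as they were for 52.2% of all genes tested. The median log2 fold of EU over PBS was 0.019 for the 31 genes and 0.011 for all genes. Without PBS replicate 2 the count of higher genes was 17 and the median 0.038.

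Each fold has a 95% interval, which shows how large a difference the 3 and 3 libraries leave possible. For 22 of the 31 genes it lay wholly within a 2-fold difference in either direction, and for 20 of them within 1.5-fold. Gadd45a and Perp reached past 2-fold toward EU and Ddb2 toward PBS. The other 6 that did so were the genes with a mean under 2 CPM, whose standard errors ran from 0.466 to 0.916 on the log2 scale. The 25 genes above that level had standard errors from 0.0681 to 0.332 and folds from -0.39 to 0.64. Intervals are per gene and not adjusted for the number of genes. As the labels do not say that the libraries are separate animals, intervals and p-values reflect only how far these samples spread. The lack of Xist in replicate 1 of each group means that a group's libraries are not all from the same animals. Part of the spread may still be technical, and how much was not tested.

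**Figure D1:**
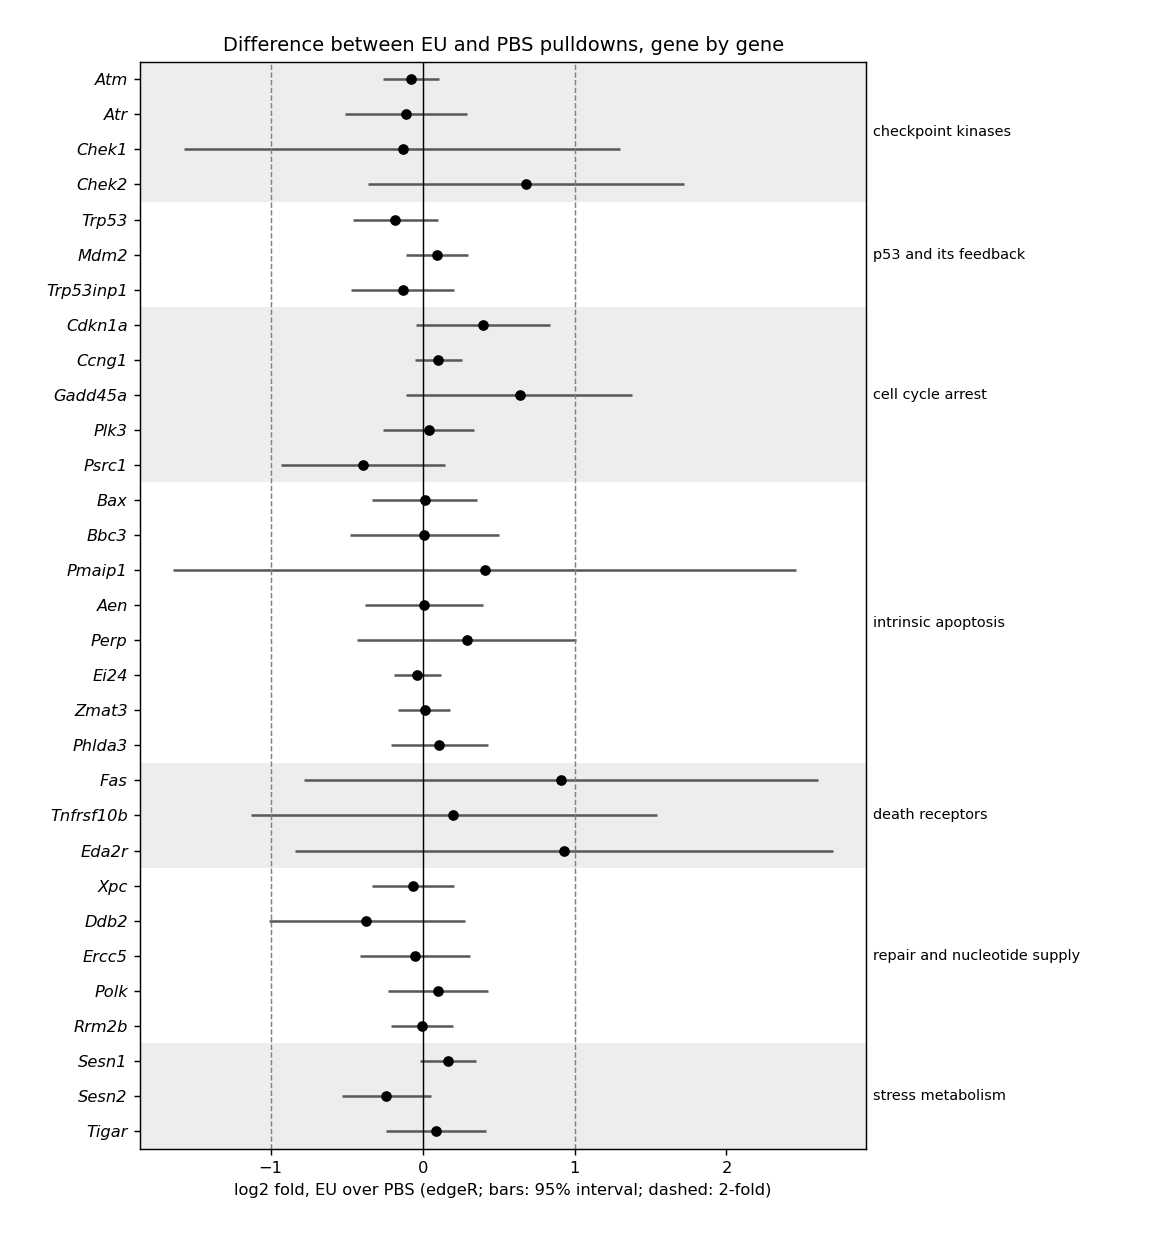
The log2 fold of EU over PBS of the 31 genes (x axis; points, edgeR) with its 95% interval (bars), grouped by role; dashed lines mark a 2-fold difference. Every interval includes 0, and the widest belong to the death receptors, Pmaip1, Chek1 and Chek2.

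Single libraries of the 2 groups overlapped for most of the genes. The CPM of the groups did not overlap for 4 of the 31 (12.9%), against 15.7% of all genes tested. Sesn1 and Chek2 were higher in every EU library (2 genes, with 8.52% of all genes on that side), and Sesn2 and Trp53 lower (2 genes, with 7.18% on that side). Without PBS replicate 2 the groups did not overlap for 8 of the 31 (25.8%), against 26.9% of all genes. The 4 added then were Mdm2, Aen and Ercc5, higher in EU, and Bbc3, lower. In both cases the share of the 31 is near that of all genes.

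**Figure D2:**
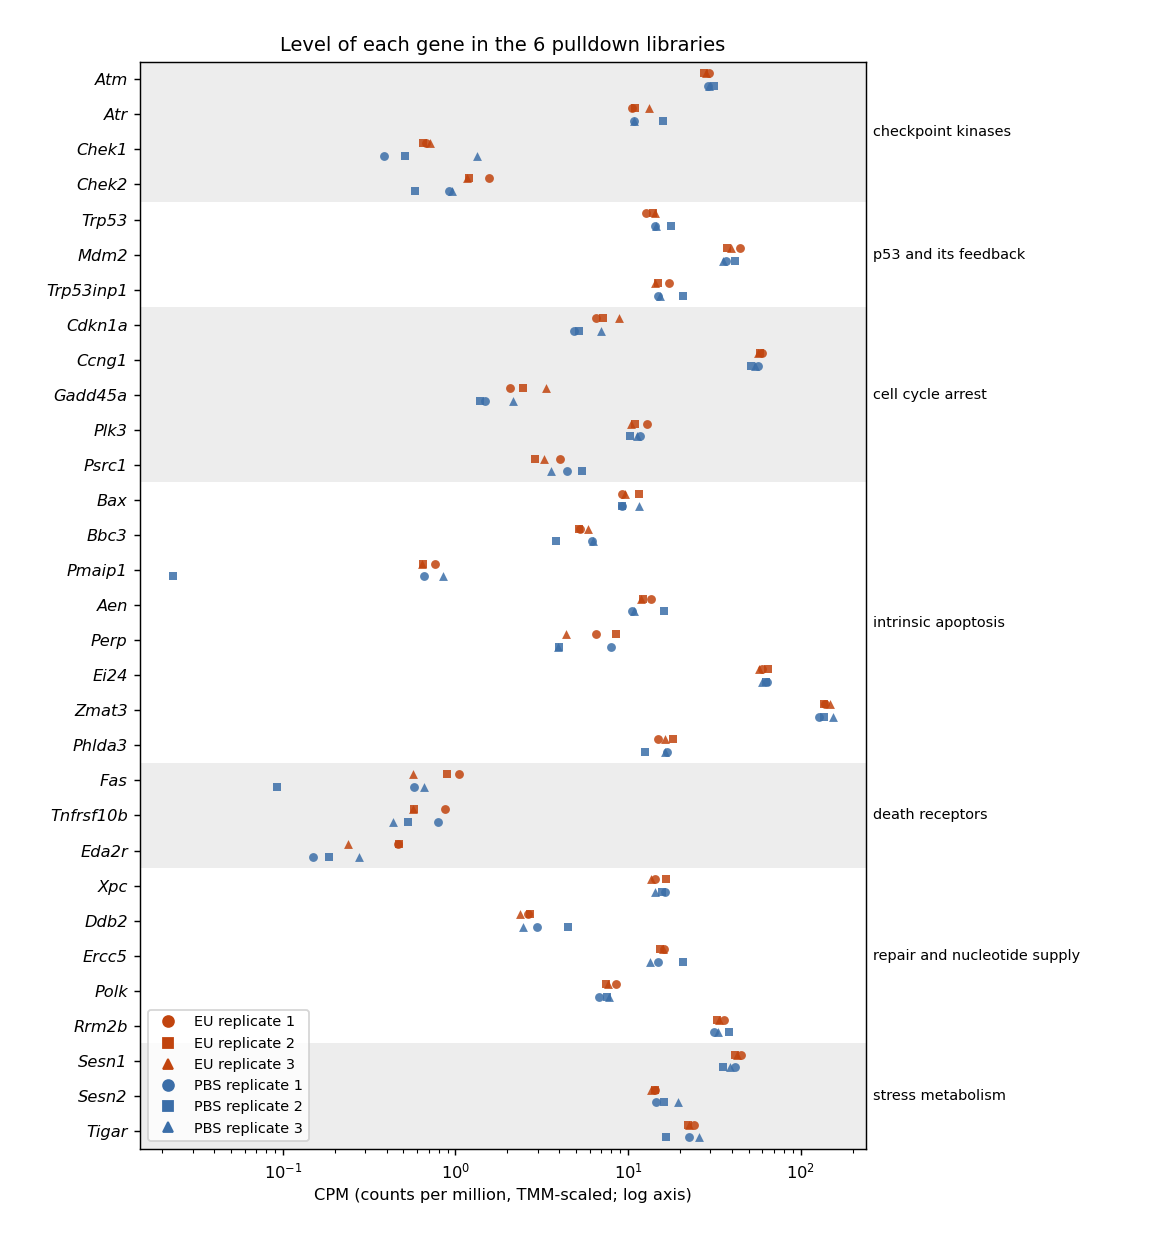
Level of each of the 31 genes (rows, by role) in CPM on a log axis, with EU libraries above PBS libraries in each row and 1 symbol per replicate. The groups overlap for all but Chek2, Trp53, Sesn1 and Sesn2, and PBS replicate 2 is far to the left for Pmaip1 and Fas.

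Trp53 (ENSMUSG00000059552, chromosome 11, 69471185 to 69482699, plus strand in GRCm39), which encodes p53 itself, stood at 12.73, 13.94 and 14.39 CPM in EU replicates 1 to 3, and at 14.41, 17.62 and 14.49 in PBS replicates 1 to 3. The groups were separate only between EU replicate 3 and PBS replicate 1, which nearly touch, and PBS replicate 2 was the highest. The log2 fold was -0.18 (SE 0.125, interval -0.46 to 0.10, edgeR adjusted p = 0.78), and -0.08 without PBS replicate 2. The level of p53 is set mainly at the protein, which was not measured.

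Mdm2 (ENSMUSG00000020184, chromosome 10, 117524780 to 117546663, minus strand), the ligase that closes the feedback loop, is among the most direct readouts of active p53. It stood at 44.22, 37.55 and 39.54 CPM in EU, against 37.08, 41.38 and 35.46 in PBS. The ranges overlapped, with a log2 fold of 0.092 (with SE 0.0911 and an edgeR adjusted p of 0.837). The upper end of the interval was a 1.23-fold higher level in EU. Trp53inp1, a nuclear protein that p53 induces and that acts in cell death and autophagy, stood at 17.36, 14.96 and 14.37 CPM in EU, against 14.88, 20.87 and 15.40 in PBS. Its fold of -0.13 turned to 0.038 without PBS replicate 2, which was the highest library.

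The checkpoint kinases sit upstream of p53, and their mRNA reports the capacity to signal and not its use. Atm, which answers to double-strand breaks, averaged 28.4 CPM ± 1.04 in EU and 29.9 ± 1.21 in PBS (mean ± SD, 3 libraries each), one of the narrowest spreads of the set. Atr, which answers to stalled replication, averaged 11.6 ± 1.38 in EU and 12.5 ± 2.96 in PBS (mean ± SD, 3 libraries each), and PBS replicate 2 was its highest library. The log2 folds were -0.075 for Atm and -0.11 for Atr.

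Chek2, the kinase that Atm activates, stood at 1.57, 1.20 and 1.16 CPM in EU, against 0.915, 0.580 and 0.954 in PBS. Every EU library was above every PBS library. Counts were low, between 25 and 81 per library, and the log2 fold of 0.68 (SE 0.466, edgeR adjusted p = 0.776) had an interval from -0.36 to 1.72. Chek1, the kinase that Atr activates and that dividing cells express most, stood at 0.679, 0.648 and 0.712 CPM in EU, against 0.383, 0.511 and 1.34 in PBS. PBS replicates held both its lowest and its highest value, and the fold of -0.13 turned to 0.61 without PBS replicate 3. The 6 markers of dividing cells summed to between 27.5 and 29.4 CPM in EU and between 24.5 and 30.9 in PBS, with PBS replicate 3 highest, and their part in the Chek1 values was not tested.

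Among the arrest genes, Cdkn1a and Gadd45a had the largest folds toward EU, within the spread between libraries. Cdkn1a (ENSMUSG00000023067, chromosome 17, 29309950 to 29319701, plus strand) encodes p21, the inhibitor of cyclin-dependent kinases and the standard marker of p53 activity. It stood at 6.52, 7.16 and 8.83 CPM in EU, against 4.85, 5.22 and 6.96 in PBS. PBS replicate 3 was above EU replicate 1, so the groups overlapped. The log2 fold was 0.40 (SE 0.198, interval -0.044 to 0.84, unadjusted p = 0.0724, edgeR adjusted p = 0.688), which leaves room for a level up to 1.79-fold higher in EU. Leaving out single libraries moved the fold between 0.26, without EU replicate 3, and 0.58, without PBS replicate 3.

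Gadd45a (ENSMUSG00000036390, chromosome 6, 67012080 to 67014441, minus strand), a small stress protein of growth arrest and repair, followed the same order of libraries within each group except for the 2 lowest PBS values. It stood at 2.06, 2.47 and 3.32 CPM in EU, against 1.49, 1.39 and 2.15 in PBS. The log2 fold was 0.64 (SE 0.332, interval -0.11 to 1.38, edgeR adjusted p = 0.715), and it ran from 0.42 without EU replicate 3 to 0.86 without PBS replicate 3. Gadd45a overlaps E230016M11Rik on the opposite strand, and the strand setting of the counts is not given in the sources used here.

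Ccng1, cyclin G1, is a strong p53 target with a high basal level, and it had the smallest standard error of the 31 genes. It stood at 60.01, 58.32 and 56.26 CPM in EU, against 56.81, 51.27 and 54.44 in PBS, a log2 fold of 0.10 (with SE 0.0681 and an edgeR adjusted p of 0.769). Its interval ended at a 1.19-fold higher level in EU. The stress kinase Plk3 averaged 11.4 CPM ± 1.26 in EU and 11.1 ± 0.759 in PBS (mean ± SD, 3 libraries each). Psrc1, a spindle protein, was the arrest gene with a lower value in EU, at 4.02, 2.89 and 3.25 CPM, against 4.41, 5.39 and 3.56 in PBS. The log2 fold was -0.39 (SE 0.24, edgeR adjusted p = 0.757), and -0.23 without PBS replicate 2.

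Genes of the mitochondrial arm of apoptosis gave folds near 0 where they were well measured. Bax, which opens the outer mitochondrial membrane, stood at 9.25, 11.55 and 9.59 CPM in EU, against 9.17, 9.26 and 11.52 in PBS. The values interleave, with a log2 fold of 0.019 (SE 0.154, interval -0.33 to 0.36). Bbc3, also called Puma, which frees Bax from its inhibitors, stood at 5.26, 5.19 and 5.89 CPM in EU, against 6.15, 3.83 and 6.23 in PBS. Its fold of 0.0088 was -0.19 without PBS replicate 2, the lowest library.

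Pmaip1, also called Noxa, another gene of the mitochondrial arm, had 39, 26 and 27 counts in EU, against 31, 1 and 49 in PBS. The single count in PBS replicate 2 set the fold. The log2 fold was 0.41 with an SE of 0.916, the largest of the 31 genes, and it turned to -0.15 without PBS replicate 2. The level of Pmaip1 was 0.641 to 0.757 CPM in EU, against 0.66 and 0.85 in PBS replicates 1 and 3.

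Zmat3, an RNA-binding protein and p53 target, had the highest CPM of the 31 genes, at 138.1, 135.8 and 147.6 in EU, against 126.8, 137.1 and 153.5 in PBS. The PBS range enclosed the EU range, and the log2 fold was 0.014 (SE 0.0754, interval -0.16 to 0.18). Ei24, a membrane protein of the endoplasmic reticulum, averaged 60.4 CPM ± 3.70 in EU and 61.9 ± 2.17 in PBS (mean ± SD, 3 libraries each). Phlda3, which restrains Akt signalling, averaged 16.5 ± 1.67 in EU and 15.3 ± 2.34 in PBS (mean ± SD, 3 libraries each), with log2 folds of -0.035 for Ei24 and 0.11 for Phlda3.

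Aen, a nuclease of apoptotic DNA breakdown, stood at 13.54, 12.27 and 11.87 CPM in EU, against 10.56, 16.16 and 10.81 in PBS. Without PBS replicate 2 its log2 fold was 0.23 in place of 0.0083. Perp, a membrane protein of cell adhesion and p53-dependent death, stood at 6.56, 8.48 and 4.37 CPM in EU, against 7.96, 3.97 and 3.94 in PBS. It varied more within the groups than between them. In the same libraries the 5 choroid plexus markers, among them Ttr, summed to 2957, 3670 and 741 CPM in EU, against 5287, 2388 and 1679 in PBS. The 3 libraries with the most Perp were the 3 with the most choroid plexus RNA, whose part in the Perp values was not tested.

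The death receptors were the least abundant group, and all 3 had higher means in EU without passing the test. Fas, the receptor of Fas ligand, had 54, 36 and 24 counts in EU, against 27, 4 and 38 in PBS. PBS replicate 2 was again the lowest, and the log2 fold was 0.91 (SE 0.754, edgeR adjusted p = 0.815) with it and 0.44 without it. Eda2r, a receptor of the ectodysplasin family encoded on chromosome X, had 24, 19 and 10 counts in EU, against 7, 8 and 16 in PBS. Its log2 fold of 0.93, the largest of the 31 genes, had an SE of 0.79 and an interval that reached from a 0.559-fold to a 6.48-fold level in EU. Tnfrsf10b, the only mouse receptor of the death ligand Trail that signals death, had 45, 23 and 24 counts in EU, against 37, 23 and 25 in PBS. For these genes a difference of 2-fold in either direction would not have been detectable at this depth and spread. The intervals of Fas and Eda2r ended above a 2-fold lower level in EU because their folds lay toward EU.

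Of the 5 genes of repair and nucleotide supply, 1 had a higher and 4 had a lower value in EU, and 0 passed the test. Their median log2 fold was -0.05. Ddb2, which recognises ultraviolet lesions in DNA, stood at 2.62, 2.69 and 2.35 CPM in EU, against 2.98, 4.46 and 2.46 in PBS. The log2 fold was -0.37 (SE 0.287, edgeR adjusted p = 0.805), and -0.0915 without PBS replicate 2, the highest library. Ddb2 overlaps the far more abundant Acp2 on the opposite strand, so part of its reads may belong to that gene. Xpc, which acts after Ddb2 in recognising such lesions, averaged 14.8 CPM ± 1.52 in EU and 15.4 ± 0.947 in PBS (mean ± SD, 3 libraries each).

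Ercc5, the nuclease of excision repair also known as Xpg, stood at 16.06, 15.21 and 15.98 CPM in EU, against 14.84, 20.71 and 13.43 in PBS. Its fold of -0.05 turned to 0.16 without PBS replicate 2. Polk, a polymerase that copies past lesions, averaged 7.90 ± 0.547 in EU and 7.37 ± 0.547 in PBS (mean ± SD, 3 libraries each). Rrm2b, the p53-induced subunit of ribonucleotide reductase, supplies nucleotides outside the cell cycle. It stood at 35.76, 32.82 and 33.82 CPM in EU, against 31.40, 38.29 and 33.03 in PBS, with a log2 fold of -0.0038 (SE 0.0931, interval -0.21 to 0.20).

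The 2 sestrins, stress proteins that restrain mTORC1, lay on opposite sides. Sesn1 (ENSMUSG00000038332, chromosome 10, 41685931 to 41784420, plus strand) stood at 45.07, 41.84 and 42.65 CPM in EU, against 41.40, 35.25 and 38.74 in PBS. Every EU library was higher, and the log2 fold of 0.17 (SE 0.0815, interval -0.015 to 0.35, unadjusted p = 0.0682) had the smallest adjusted p of the 31 genes, 0.68 in edgeR. Sesn2 stood at 14.40, 14.39 and 13.54 CPM in EU, against 14.47, 16.04 and 19.34 in PBS. PBS replicate 1 lay just above the EU values, and the log2 fold of -0.24 (SE 0.13, edgeR adjusted p = 0.727) was -0.11 without PBS replicate 3. Tigar, which lowers glycolytic flux, averaged 22.9 ± 0.923 in EU and 21.6 ± 4.58 in PBS (mean ± SD, 3 libraries each), and its fold of 0.088 turned to -0.071 without PBS replicate 2.

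Per kilobase of the longest GENCODE transcript, Ei24 led with 26.2 CPM in EU and 26.8 in PBS, followed by Zmat3 with a mean of 17.9 over the 6 libraries and by Ccng1 with 16.6 in EU and 15.4 in PBS. Mdm2 had 12.9 in EU and 12.1 in PBS. Cdkn1a had 3.61 in EU and 2.73 in PBS, a level near those of Xpc and Bbc3. At the low end Eda2r had 0.0826 in EU and 0.043 in PBS. The 31 genes together took 613, 601 and 601 CPM in EU, against 580, 603 and 605 in PBS, of which Zmat3 made up 21.9% to 25.4%. Scaled by library totals alone, the sums were 616.1, 603.8 and 607.8 in EU, against 581.9, 592.3 and 598.2 in PBS, where the groups no longer overlap. The TMM factors were 1.006 to 1.013 in EU and 0.983 to 1.003 in PBS. Leaving them out shifts any set of genes toward EU, so this is not particular to the 31 genes.

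PBS replicate 2 lay furthest from the other libraries on the 31 genes, most of all for Pmaip1 and Fas, which have few counts. It held the highest value for 9 of the 31 genes and the lowest for 10, together 61.3%, against 63.0% over all genes tested. The median distance of a gene from its 6-library mean, on the scale of log2(CPM + 0.1), was 0.32 in that library and between 0.083 and 0.12 in the other 5. Its highest values included those of Trp53, Atr, Trp53inp1, Aen, Ddb2, Ercc5 and Psrc1, and its lowest those of Pmaip1, Fas, Chek2, Bbc3, Gadd45a, Tigar and Phlda3. Without it, 10 of the 31 folds had the other sign.

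The genes were also split by the presence of a p53 half-site in a promoter window, as a description with no test. Of the 10 such genes 8 had a higher value in EU, against 52.2% of all genes tested, with or without a half-site. The log2 folds of these 10 had a median of 0.10 and a range from -0.18 for Trp53 to 0.64 for Gadd45a. Of the 13 genes whose windows hold no match 7 did, with a median of 0.0088 and a range from -0.39 for Psrc1 to 0.93 for Eda2r. Of the 8 genes without a window 4 did, with a median of 0.0049 and a range from -0.37 for Ddb2 to 0.41 for Pmaip1. Without PBS replicate 2 the counts were 7 of 10, 5 of 13 and 5 of 8, and the medians were 0.11, -0.014 and 0.019. None of these genes passed the test, and the ranges of the 3 sets overlap. The share with a higher value among all genes with a half-site was not computed. The 8 genes include Bax at 0.019 and Aen at 0.0083, whose signs turned in 4 and 3 of the 13 alternatives. The set without a match includes the kinases Atm, Atr, Chek1 and Chek2, which sit upstream of p53.

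A wider set of 145 genes of the same pathways, in 7 lists, gave a similar picture. Of the 142 tested, 0 passed the threshold, 71 had higher and 71 lower values in EU, and 8 (5.63%) had an unadjusted p under 0.05. Groups did not overlap for 19 (13.4%). Over all genes the shares were 7.88% and 15.7%. Of those 8 genes with an unadjusted p under 0.05, 5 were among the other p53 targets, the largest list, with 39 of the 142 genes.

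Among 40 other p53 targets, 39 were tested, with 22 higher, 17 lower and a median log2 fold of 0.021. Of the 39, 0 passed the threshold and 5 had an unadjusted p under 0.05 in edgeR, somewhat more than the 7.88% of all genes. Groups did not overlap for 5 higher and 2 lower of the 39 genes, a share near the 15.7% of all genes. These counts are small and were not tested against the shares of all genes. Fbxw7, which marks cyclin E and other proteins for destruction, stood at 162.1, 172.1 and 181.2 CPM in EU, against 137.3, 146.6 and 144.6 in PBS. The groups were separate, with a log2 fold of 0.27 (with SE 0.0602 and an edgeR adjusted p of 0.236), the smallest adjusted p of the 142 genes. Kitl, the ligand of the Kit receptor, stood at 28.83, 24.76 and 26.20 CPM in EU, against 17.05, 22.87 and 22.85 in PBS. Its groups were separate too (log2 fold 0.35, edgeR adjusted p = 0.522).

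Of 20 genes that regulate p53, 19 were tested, 10 higher and 9 lower, with a median of 0.0025. The ribosomal protein gene Rpl11, whose product inhibits Mdm2, had a log2 fold of 0.13 with separate groups (edgeR adjusted p = 0.671). The p53 relative Trp73, which choroid plexus and ependyma also express, stood at 5.083, 5.810 and 3.087 CPM in EU, against 7.854, 7.245 and 4.215 in PBS. EU replicate 3 and PBS replicate 3 were its lowest libraries and also those with the least choroid plexus RNA. PBS replicate 2 had less choroid plexus RNA than EU replicates 1 and 2 but more Trp73. The part of choroid plexus in the Trp73 values was not tested.

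Checkpoint signalling genes (25 tested) split into 11 higher and 14 lower, with a median of -0.043. Topbp1, the activator of Atr, stood at 20.95, 20.80 and 23.23 CPM in EU, against 17.97, 18.20 and 18.04 in PBS, and the groups were separate (log2 fold 0.26, edgeR adjusted p = 0.519). Cdc25a, the phosphatase that Chek1 marks for destruction, had a log2 fold of 0.50 with overlapping groups (edgeR adjusted p = 0.733).

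The repair lists also centred near 0. Nucleotide excision repair had 8 of 16 genes higher and a median of 0.0027, with Gtf2h4 at a log2 fold of -0.38 and Ercc4 at 0.19. Base excision repair had 9 of 17 tested genes higher and a median of 0.038. In it Ogg1, the glycosylase that removes oxidised guanine, stood at 3.492, 3.391 and 3.491 CPM in EU, against 5.023, 6.293 and 4.233 in PBS. All EU libraries were lower, with a log2 fold of -0.58 (with SE 0.211 and an edgeR adjusted p of 0.511), and Apex1, the nuclease of the next step, had -0.27 (edgeR adjusted p = 0.606). Double-strand break repair had 9 of 18 genes higher and a median of 0.01, with Xrcc2 at 0.50 and Rad51c at 0.77 (edgeR adjusted p of 0.634 and 0.721). Mismatch repair had 2 of 8 higher and a median of -0.06, with Mlh3 at -0.21 and Msh3 at -0.15. The groups were separate for Gtf2h4, Apex1, Xrcc2 and Rad51c as well, and overlapped for Ercc4, Mlh3 and Msh3. The genes named from the wider lists are those with the smallest p, a choice that favours separate groups.

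**Figure D3:**
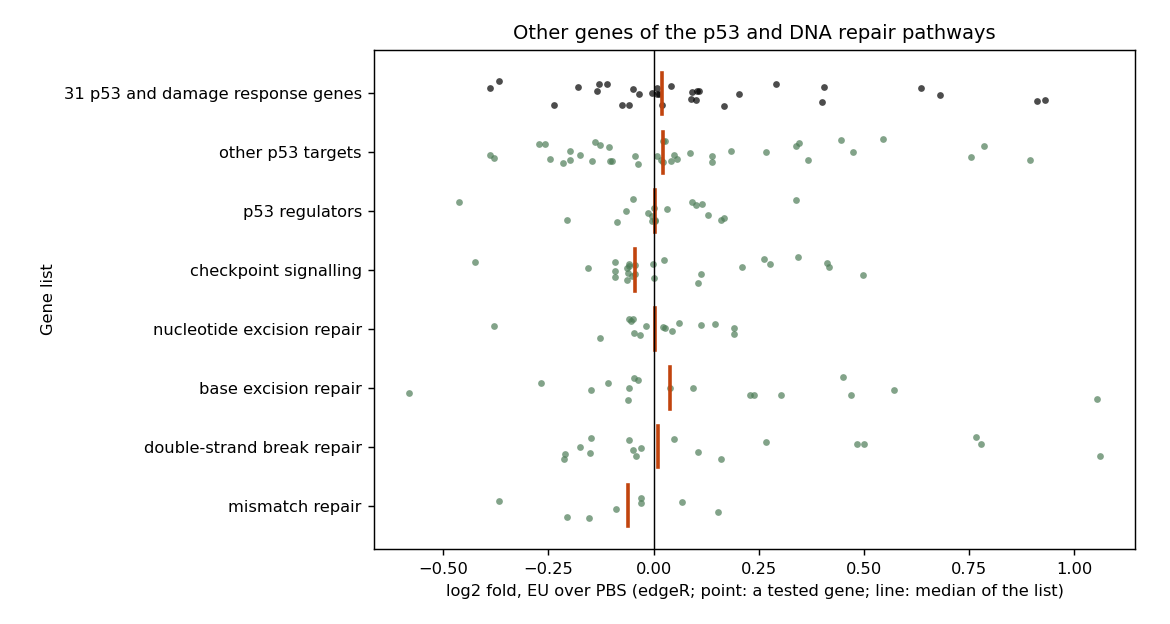
The log2 fold of EU over PBS (x axis, edgeR) of each tested gene in the 31-gene set and in 7 wider pathway lists (rows), with the median of each list as a line. Medians lie between -0.06 and 0.038, and each list has genes on both sides of 0.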

How the data were processed

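The authors deposited raw read counts per gene for 6 libraries, with no normalization. The tools named in the submitters' processing notes are STAR 2.7.10b, featureCounts 2.0.1 and bcl2fastq 2.20.0, with the GRCm39 build. The annotation release and strand setting are not given there. Of 55508 rows, the 92 of ERCC spike-ins (0 counts) were dropped. The 1492 genes that lack a symbol held 0.0171% of counts and stayed in. The table held 0 columns of other samples. Libraries were grouped by their titles.

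Counts were tested across all genes with edgeR 4.0.16 in R 4.3.3 (filterByExpr, TMM, treatment as the only term). Each standard error is the size of the log2 fold over the root of its F statistic, and intervals use the degrees of freedom of F. Alternatives were library totals, DESeq2 1.42.0, limma 3.58.1 voom, no filter, a stricter filter (3 or more libraries at a CPM of 1 or higher), a replicate block, and omission of each library in turn. Presence of Xist as a block, and overlap without PBS replicate 2, were added after seeing the data. The script was tested on simulated data. No library was a copy of another (chi-square per degree of freedom at least 8.06 between pairs). Counts without molecular identifiers are not independent molecules.

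The 31 genes and the lists were chosen with earlier results of these data known. The text names all 31 and, of each wider list, the 2 genes with the smallest p. GENCODE M21 (GRCm38) gave transcript lengths for 31 of 31 genes, and RefSeq the promoter windows. Figures used matplotlib 3.10.9.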

Additional observations from a re-analysis of the deposited data

How the results depend on the processing

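Wherever one of the 31 genes had an adjusted p in the 13 alternatives (edgeR, DESeq2 or limma voom), it missed the threshold, and the smallest was 0.394. The stricter filter tested 26 of the 31, and DESeq2 gave an adjusted p to 14 and none to 17. Over the whole table edgeR called 0 genes, DESeq2 294, limma voom 12, edgeR without a filter 248, the replicate block 18, Xist status as a block 1, and leaving out 1 library between 0 and 20 (20 without PBS replicate 2, 1 without EU replicate 1). The median log2 fold of the 31 genes was 0.019 and ran from 0.0167 to 0.0938 with 1 library left out (highest without PBS replicate 3). The groups did not overlap for 4 genes with all libraries and for 8 without PBS replicate 2.

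The sign held in all alternatives for 17 of the 31 genes. Among the other 14, and without any reaching the threshold, the lowest and highest log2 folds with 1 library left out were -0.218 and 0.0973 for Atr, -0.452 and 0.607 for Chek1, -0.224 and 0.0383 for Trp53inp1, -0.0569 and 0.0969 for Plk3, -0.0898 and 0.139 for Bax, -0.188 and 0.127 for Bbc3, -0.149 and 0.988 for Pmaip1, -0.105 and 0.232 for Aen, -0.0554 and 0.0938 for Zmat3, -0.0142 and 0.18 for Phlda3, -0.0375 and 0.47 for Tnfrsf10b, -0.169 and 0.155 for Ercc5, -0.0683 and 0.0811 for Rrm2b, and -0.0708 and 0.234 for Tigar. Limma voom turned Bax to -0.00598, Ercc5 to 0.00199 and Rrm2b to 0.0101. Rrm2b was also 0.0207 with library totals, 0.00449 without a filter and 0.000326 with the replicate block, which gave 0.0788 for Chek1. The cause was not tested.

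The medians of the 7 wider lists stayed between -0.10 and 0.0962 over all alternatives, with both signs for 6 of them. The replicate numbers are not said to pair animals. Deviations of same-numbered libraries correlated at 0.0638, 0.0237 and 0.0982 across 18511 genes, and every library correlated best with its own number, which is a hint from the data and not from the design. Depth limits the 6 genes under 2 CPM most.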

Other observations

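The 31 genes differ in how many uridines their transcripts hold, the base that EU replaces. The longest GENCODE transcript of each held between 213 uridines (Bax) and 2666 (Atm), with a median of 819, and uridine made up between 16.4% (Bbc3) and 33.1% (Trp53inp1) of the bases. Across the 31 genes, which share the same 6 libraries, the Spearman correlation of the log2 fold with the number of uridines was -0.24 and with their share 0.051.

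For 13 of the 31 genes the table lists another gene overlapping the gene body, on the opposite strand for 9. Trp53 has a named pseudogene, Trp53-ps, with 6 counts over the 6 libraries against 559 to 835 per library for Trp53.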
